A study of Mus musculus with 6 samples.

Results

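The genes described here encode the main apolipoproteins, the protein components of plasma lipoproteins, and the transfer protein that loads lipid onto apolipoprotein B. There were 10 of them at 5 loci in the mouse genome. The gene cluster of Apoa1, Apoc3, Apoa4 and Apoa5 lies on chromosome 9, the cluster of Apoe, Apoc1 and Apoc2 on chromosome 7, Apoa2 on chromosome 1, Apob on chromosome 12 and Mttp on chromosome 3. Accessible intervals were taken when they overlapped the RefSeq span of a member gene or the 10 kb to either side by at least 1 bp, and each was counted once per locus. By this rule 29 of 120905 listed intervals belonged to the 5 loci.

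The intervals came from ATAC-seq, in which a transposase cuts accessible DNA and leaves sequencing adapters in it. The livers were from male mice of wild-type genotype fed a high-fat diet, with 3 libraries from the inbred strain C57BL/6J and 3 from the inbred strain 129S1/SvImJ. Sources used here give neither age nor time of collection, and do not state whether each replicate was its own animal. The libraries were combined into 1 list of positions on the build mm10, with no strain, library, read count or score, so the depth behind each interval is unknown. A difference between C57BL/6J and 129S1/SvImJ could therefore not be measured, and all values describe the combined list without replicates or tests.

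The liver releases triglyceride in very low density lipoproteins, each built around a single apolipoprotein B molecule. The microsomal triglyceride transfer protein encoded by Mttp adds lipid to apolipoprotein B as it is made. Apolipoproteins A-I and A-II form the body of high density lipoprotein, while the C apolipoproteins, A-V and E set how fast particles lose triglyceride and are taken up again. In liver these genes are known to be controlled by hepatocyte nuclear factors and by nuclear receptors.

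The tissue label was checked on marker genes, and all 5 hepatocyte genes (Alb, Ttr, Serpina1a, Cps1 and Hnf4a) had an interval within 1 kb of a gene end. The same held for 2 of 5 macrophage genes (Cd68 and Marco) and for 2 of 5 genes of the intestine (Cdx2 and Fabp2), the other main source of apolipoproteins. The other 3 genes of the intestine, Vil1, Lct and Sis, had no interval at an end, and Lct had none within 10 kb. Of all 21887 protein-coding genes, 61.5% had an interval at an end. Within 1 kb of a start site, where listed, 2 of 3 hepatocyte, 2 of 2 macrophage and 1 of 5 intestine genes had an interval. The share was 61.7% of protein-coding genes with a listed start site. Alb was the hepatocyte gene without one, its start site being 3390 bp from the nearest interval.

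Apoa4 was the member with an interval over the bases just upstream of its start site. Its 250 bases before the start site are shown because 197 of them, in capitals, fall in an interval of 276 bp. Apoc4, which lies next to Apoc2 and also encodes an apolipoprotein, is shown for the same reason, with 183 of its 250 bases in capitals inside an interval of 263 bp. Sequences are from RefSeq for GRCm38.p6, which is mm10, and read in the direction of the gene. Apoa4 is at chr9:46240594-46240843 on the plus strand and Apoc4 at chr7:19681461-19681710 on the minus strand.
Apoa4: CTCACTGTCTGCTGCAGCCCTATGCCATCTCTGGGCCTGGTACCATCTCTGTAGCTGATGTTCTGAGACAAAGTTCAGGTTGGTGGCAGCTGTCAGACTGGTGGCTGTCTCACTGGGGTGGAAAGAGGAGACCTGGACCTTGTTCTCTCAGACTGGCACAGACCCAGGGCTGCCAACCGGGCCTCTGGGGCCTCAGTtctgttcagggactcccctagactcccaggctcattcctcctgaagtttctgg
Apoc4: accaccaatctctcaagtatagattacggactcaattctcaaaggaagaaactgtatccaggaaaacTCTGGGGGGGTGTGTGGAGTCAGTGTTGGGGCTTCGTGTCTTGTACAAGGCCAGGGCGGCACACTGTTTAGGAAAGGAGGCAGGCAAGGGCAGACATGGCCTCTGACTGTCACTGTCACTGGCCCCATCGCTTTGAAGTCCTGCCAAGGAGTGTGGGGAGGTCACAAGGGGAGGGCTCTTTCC

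For contrast, the upstream bases of Apoa1 and Apob are shown, in which no base lay in an interval. Apoa1 (chr9:46228380-46228629, plus strand) had no interval within 1 kb of its start site, whereas at Apob (chr12:7977427-7977628, plus strand, ending where the annotated gene span begins) the interval started just after the start site. Capitals mark letters searched for as motifs, which are described with the promoters further on. Apoa1 held none of them.
Apoa1: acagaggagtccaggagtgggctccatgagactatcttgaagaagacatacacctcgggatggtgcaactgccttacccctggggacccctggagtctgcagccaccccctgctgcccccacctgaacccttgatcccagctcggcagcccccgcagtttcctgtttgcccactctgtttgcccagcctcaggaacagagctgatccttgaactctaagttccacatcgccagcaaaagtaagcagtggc
Apob: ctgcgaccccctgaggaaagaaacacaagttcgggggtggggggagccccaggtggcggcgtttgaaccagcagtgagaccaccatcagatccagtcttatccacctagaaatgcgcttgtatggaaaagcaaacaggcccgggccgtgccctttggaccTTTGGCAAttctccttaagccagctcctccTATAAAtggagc

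Intervals were spread unevenly over the loci. The Apoa1 cluster held 9, the Apoe cluster 7, Mttp 6, Apoa2 4 and Apob 3. Relative to the length of the windows these were 1.61 intervals per 10 kb at Apoa2, 1.55 at the Apoa1 cluster, 1.41 at the Apoe cluster, 0.82 at Mttp and 0.51 at Apob. The windows of all protein-coding genes, each taken singly, had a median of 0.65 per 10 kb, with quartiles of 0.30 and 1.06. Apoa2 was thus above the upper quartile, Mttp was between it and the median, and Apob was below the median. The cluster values come from joined windows of several genes and are not the same measure as these quartiles. Taken singly, the windows of cluster members held from 1 interval (Apoe) to 6 (Apoc2).

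**Figure D1:**
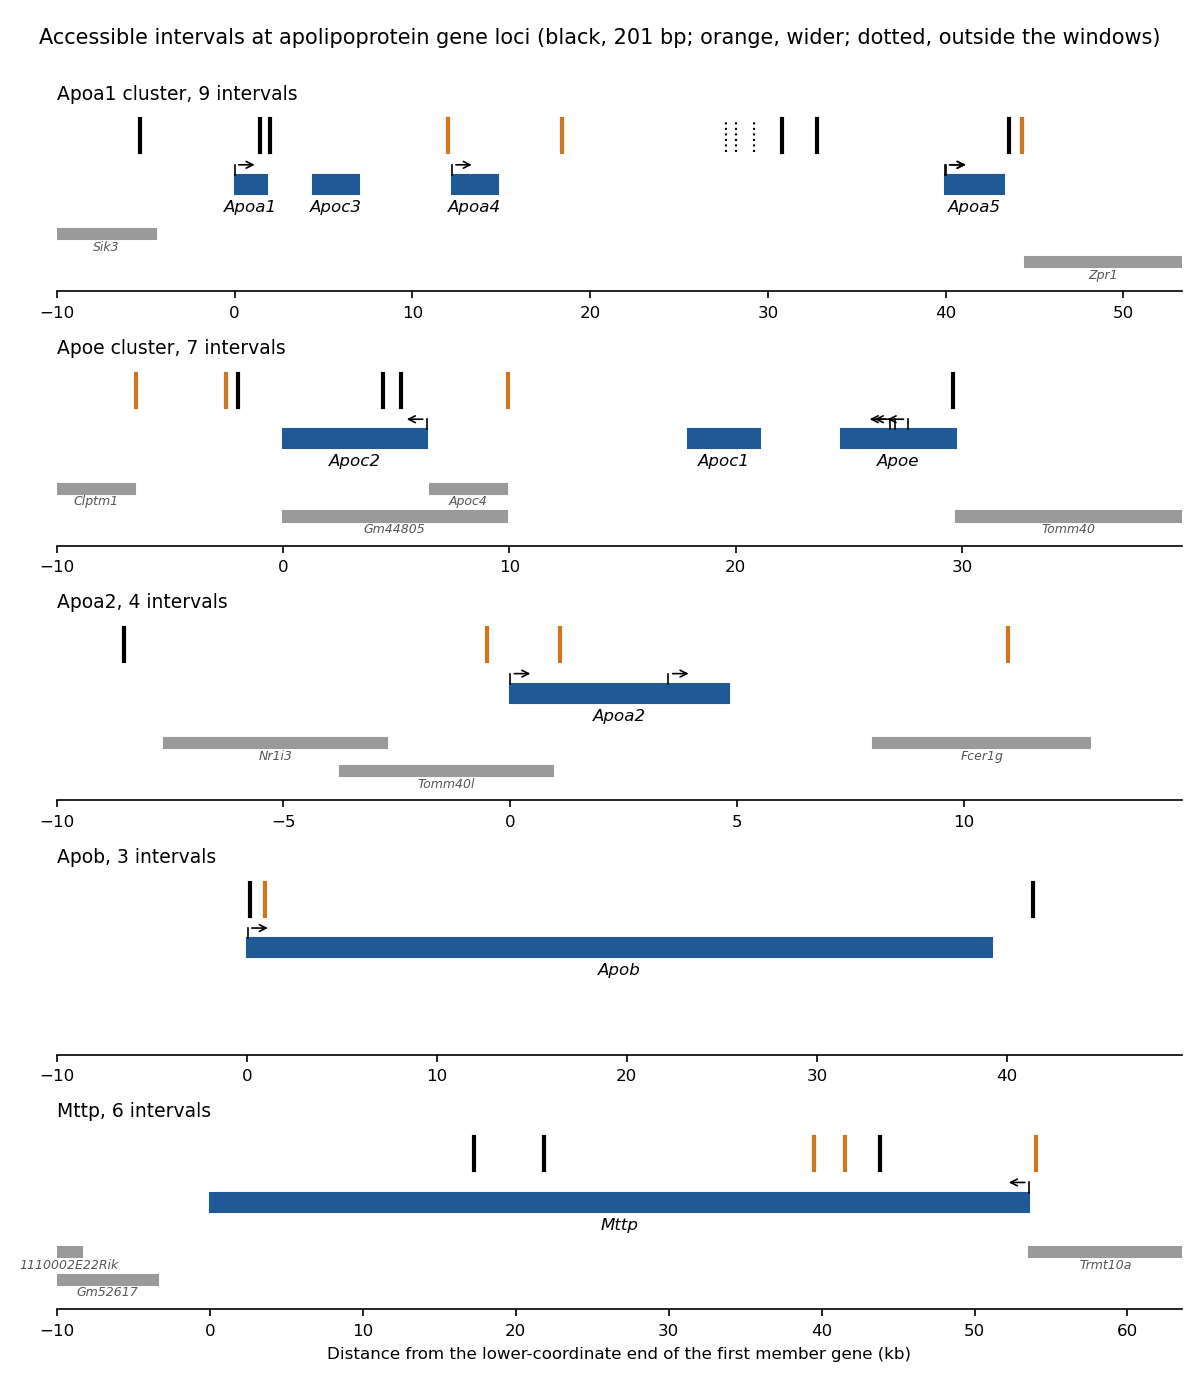
Map of the 5 loci, with distance in kb from the lower-coordinate end of the first member gene on the horizontal axis. Blue boxes are member genes, grey boxes neighbouring genes reported here, arrows the start sites listed for members, and vertical lines intervals (black, exactly 201 bp; orange, wider; dotted, between the windows of Apoa4 and Apoa5). Intervals at Apob sit at the start of the gene and beyond its far end, while those at Mttp lie mainly inside the gene.

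In the chromosome 9 cluster, Apoa1 encodes the main protein of high density lipoprotein. Its span (46228630 to 46230469, 1840 bp, plus strand) had 3 intervals within 10 kb, and 2 of them lay at the far end of the gene. An interval of 201 bp at 46229985 to 46230185 was inside the gene, 284 bp short of that end, and another of 201 bp at 46230498 to 46230698 began 29 bp beyond it. The third, at 46223220 to 46223420, lay inside the kinase gene Sik3, 5210 bp before Apoa1. The 4435 bp between Sik3 and Apoa1, which hold the upstream region of Apoa1, had no interval. The nearest interval to its start site was 1355 bp away, downstream.

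Apoc3 encodes an inhibitor of triglyceride clearance. Its span (46233050 to 46235636, 2587 bp) contained no interval and had none within 1 kb of either end. The nearest intervals were the one beyond Apoa1, 2352 bp from the lower end, and the one before Apoa4, 4879 bp from the upper end. All 4 intervals in its window were shared with the window of Apoa1 or Apoa4. Between these intervals 9816 bp were free of intervals, including all of Apoc3.

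Apoa4, a lipid-binding protein made by liver and intestine, had an interval just before its start site, closer than those of Apoa1 and Apoa5 to theirs. This 276 bp interval at 46240515 to 46240790 ended 54 bp before the start site of Apoa4 (46240844 to 46243458, plus strand). A further interval of 205 bp at 46246920 to 46247124 lay 3462 bp beyond the far end. The gene itself contained none.

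Apoa5 encodes an activator of lipoprotein lipolysis that is made in the liver. Its span (46268608 to 46271921, plus strand) had 4 intervals within 10 kb and none inside. Both upstream intervals were 201 bp wide, at 46259323 to 46259523 and 46261267 to 46261467, 9085 and 7141 bp before the gene. An interval of 201 bp at 46272093 to 46272293 lay 172 bp beyond the far end, and 1 of 302 bp at 46272765 to 46273066 covered the start site of the neighbour Zpr1. The nearest interval to a start site of Apoa5 was 3460 bp away, the largest such distance among the 8 members with a listed start site.

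The region between Apoa4 and Apoa5 was the largest gap between genes of either cluster and held the most intervals. It measured 25.1 kb and contained 6 intervals, or 2.39 per 10 kb. Only 3 of them lay in a member's window. The other 3, at 46256192 to 46256392, 46256760 to 46256960 and 46257727 to 46257966, fell just outside both windows. They lay 12734 to 14269 bp after Apoa4 and 10642 to 12216 bp before Apoa5, and were not counted among the 29.

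In the chromosome 7 cluster, Apoe encodes a ligand of lipoprotein receptors and had the fewest intervals of all members. The single interval within 10 kb of its span (19696244 to 19701310, minus strand) was 201 bp wide, at 19701099 to 19701299. It lay inside the gene, 11 bp from the upper end of the span and just before Tomm40, whose span begins at 19701313. Of the 3 start sites listed for Apoe, the nearest was 1911 bp from this interval. An interval at the end of the span was therefore not an interval at a listed start site.

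Apoc1, which inhibits uptake of lipoprotein remnants, was the member farthest from any interval. Its span (19689480 to 19692659) lay 7837 bp from the interval at Apoc4 and 8440 bp from the one at Apoe. Both were in its 10 kb window, and none lay within 5 kb. A stretch of 19.5 kb from 19681643 to 19701099 had no interval and held Apoc1 and most of Apoe. In the human cluster, liver enhancers are known to lie downstream of APOC1. In these mouse livers the 8019 bp between Apoc4 and Apoc1 held 1 interval, the one at Apoc4. Whether it matches a human enhancer was not tested.

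Apoc2 encodes the cofactor of lipoprotein lipase and had 6 intervals, the most among the short genes. Its span (19671579 to 19677941, minus strand) contained 2 of 201 bp, 1029 and 1831 bp from the start site. A pair at 19668971 to 19669179 and 19669477 to 19669677 lay 2400 and 1902 bp beyond the far end. The remaining 2 lay at neighbours. An interval of 211 bp covered the start site of Clptm1, and the interval of 263 bp at 19681381 to 19681643 covered the shared start site of Apoc4 and Gm44805. The spans of Apoc2 and Gm44805 overlap, so intervals inside Apoc2 were inside both.

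Apoa2, on chromosome 1, encodes the second most abundant protein of high density lipoprotein and lies among closely spaced genes. Its span (171221564 to 171226379, plus strand) had 4 intervals within 10 kb. An interval of 226 bp at 171220948 to 171221173 ended 391 bp before the first start site, inside the overlapping gene Tomm40l. Another of 208 bp at 171222548 to 171222755 lay inside Apoa2, 984 bp after that start site and 34 bp from the end of Tomm40l. The other 2 belonged by position to neighbours, 1 in Fcer1g and 1 of 201 bp that lay 822 bp before the start site of Nr1i3, which encodes a xenobiotic receptor. Of the 4 intervals, 1 was nearer to an end of Apoa2 than to an end of any other protein-coding gene.

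Apob had the sparsest locus and, of the 8 members with a listed start site, the interval closest to its own. Its span (7977629 to 8016839, 39.21 kb, plus strand) is not overlapped by another gene in the window. A 201 bp interval at 7977682 to 7977882 began 5 bp after the start site, and a 290 bp interval at 7978464 to 7978753 lay 787 bp after it. The third interval, at 8018892 to 8019092, lay 2053 bp beyond the far end. The 40.1 kb between the second and the third, which is nearly the whole gene, had none. Among 6926 protein-coding genes whose span was between 0.5 and 2 times that of Apob, 25.7% had a longer stretch without an interval in their windows. The median of their longest stretches was 28.7 kb.

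Mttp was the member with the most intervals inside the gene. Its span (138089855 to 138143418, 53.56 kb, minus strand) contained 5, and the sixth lay 355 bp before the start site. This 237 bp interval at 138143773 to 138144009 covered a start site of Trmt10a, which is transcribed in the other direction. The 5 inside the gene were 201 to 205 bp wide. Of these, 3 lay 9623, 11958 and 13977 bp from the start site, and the other 2 lay 31600 and 36212 bp from it. The first 17151 bp at the far end of the gene had none, and neither had the flank on that side, which 1110002E22Rik and Gm52617 reach.

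Counts per gene were compared with protein-coding genes of similar span, taken as 0.5 to 2 times the span of the member. The 10 members had 1 to 6 intervals each, with a median of 3.5, against a median of 3 for all protein-coding genes. Of the 10, 5 had more than 3 intervals, as did 41.7% of all protein-coding genes. Against the median for each setting this count was 3 without flanks and 8 with flanks of 50 kb. Those medians were 1 and 8, and the shares of all protein-coding genes above them are not given here. Apoc2 had 6 where similar genes had a median of 2, and 95.7% of those genes had fewer. Apoc3, Apoa5 and Apoa1 had more than 84.6%, 82.3% and 80.2% of genes of similar span, and Apoa2 had more than 78.3%. Apoe was at the other end, since 62.6% of similar genes had more, and Apob was below its median of 4. With flanks of 10 kb, 6 members were above the median of genes of similar span, 2 were equal to it and 2 were below. Many similar genes sit at the median itself. For Apoa4 and Apoc1, which equalled it, 31.6% and 34.2% of similar genes had more.

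These counts belong in part to neighbours. The sum over genes was 35, because 6 intervals were in the windows of 2 members. Of the 29 intervals, 12 overlapped a member gene, 10 lay between protein-coding genes and 7 overlapped only another protein-coding gene. For 21 of the 29 a member's end was the nearest gene end. Inside the gene spans alone, 6 of 10 members held an interval, as did 69.1% of all protein-coding genes. Apoc3, Apoa4, Apoa5 and Apoc1 held none.

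**Figure D2:**
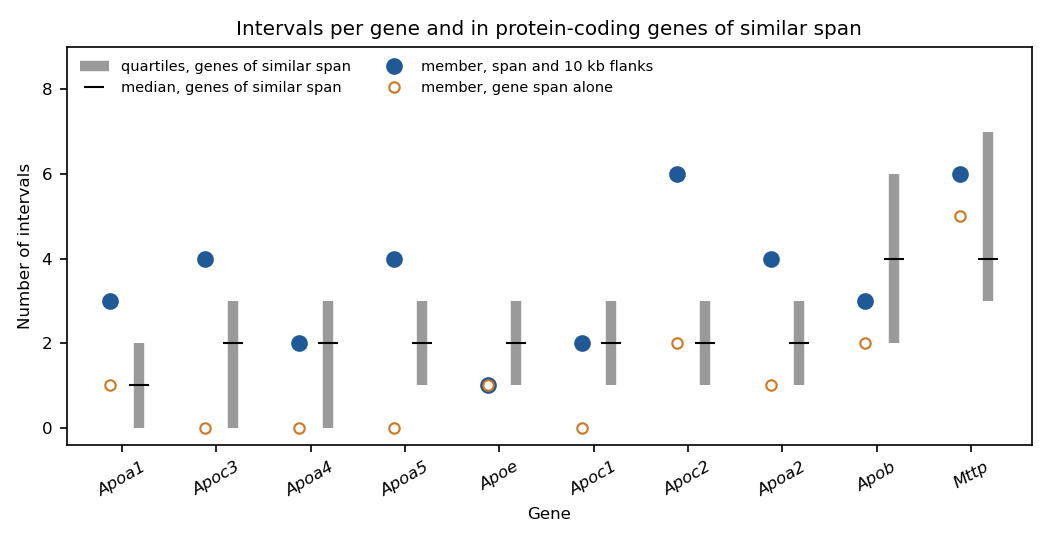
Number of intervals for each member gene on the vertical axis, in the gene span with 10 kb flanks (filled) and in the gene span alone (open). Grey bars are the quartiles and black lines the medians for protein-coding genes of 0.5 to 2 times the span, counted with flanks. Apoc2 with 6 lies above its grey bar and Apoe with 1 is at the lower edge of its own.

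At the ends of genes, 7 of 10 members had an interval within 1 kb, against the 61.5% of all protein-coding genes given above. Apoc1, Apoc2 and Apoc3 were the exceptions. Among genes of similar span the share was lower for the short members, from 32.9% for Apoa1 to 59.5% for Apoc2. It was 71.6% for Apob and 73.4% for Mttp. With a window of 5 kb only Apoc1 was left without an interval at an end, and 76.8% of all protein-coding genes had one. Apoc4, a C apolipoprotein gene beside the members, had an interval over its start site. The 7 were not all at the start of transcription. At Apoa1 and Apoa5 the interval was at the far end, and at Apoe it was at the upper end of the span but distant from the listed start sites.

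Start sites gave a lower count. They were listed for 8 members, all but Apoc1 and Apoc3. Of these 8, Apob, Apoa4, Mttp and Apoa2 had an interval within 1 kb of a start site, at 5, 54, 355 and 391 bp. Of 17492 protein-coding genes with a listed start site, 61.7% had such an interval. Apoc2 at 1029 bp, Apoa1 at 1355 bp, Apoe at 1911 bp and Apoa5 at 3460 bp did not. No interval covered a start site of any of the 8, whereas 38.7% of the protein-coding genes had a covered start site. Within the promoter window of 250 bases before to 50 after a start site, 2 of 8 members, Apoa4 and Apob, had an interval, against 52.1% of genes. The median distance was 710 bp for the members and 103 bp for all genes, a difference that did not hold for every member against genes of its own span. Apoa1 at 1355 bp, Apoa4 at 54 bp, Apoa2 at 391 bp and Apob at 5 bp were nearer than the medians of such genes, which were 6262, 1742, 449.5 and 9 bp. Apoa5, Apoe, Apoc2 and Mttp were farther than theirs, which were 1305, 350, 221 and 4 bp.

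Shares at start sites were lower among protein-coding genes as short as most members. Among genes of the span of Apoa1 29.0% had an interval within 1 kb of a start site, among those of the span of Apoa4 45.5% and of Apoe 54.1%. The share was 75.0% for genes of the span of Apob and 77.6% for those of Mttp. Start sites covered by an interval ranged from 15.5% for the span of Apoa1 to 49.1% for that of Mttp. The count of 0 of 8 stood against these lower shares for the short members, and 8 genes give a coarse count.

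**Figure D3:**
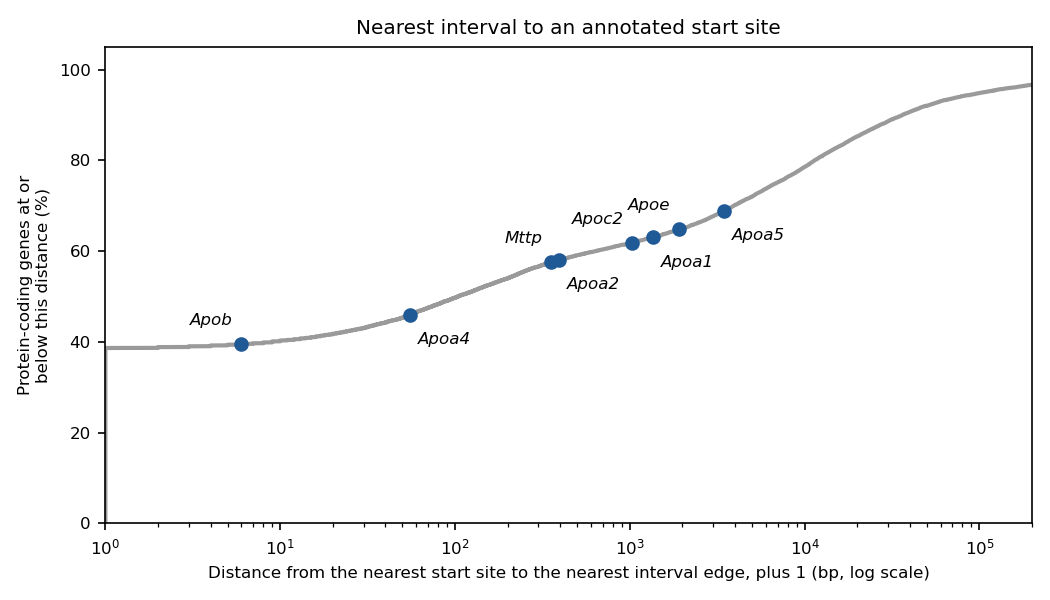
Share of protein-coding genes (vertical axis, %) whose nearest start site lies within a given distance of an interval edge (horizontal axis, bp plus 1, log scale). Points mark the 8 members with a listed start site, from Apob at 5 bp to Apoa5 at 3460 bp. The curve begins at 38.7%, the genes with a covered start site, and no member is among them.

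Start sites of neighbours accounted for several intervals of the loci. Of the 29, 11 lay within 1 kb of any listed start site (37.9%), and 6 of these were within 1 kb of a member's own. Among 76264 intervals in the corresponding windows of all protein-coding genes the share was 18.5%. This share was not matched for gene span, and most members are short genes. Zpr1, Clptm1, Apoc4 with Gm44805, and Trmt10a each had a start site covered by an interval. Apoa5, Apoc2 and Mttp, beside them, did not. Nor did the neighbours Sik3, Tomm40, Nr1i3, Fcer1g, 1110002E22Rik and Gm52617. Of all protein-coding genes with a listed start site, 38.7% had a covered one.

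Intervals were mostly of the narrowest kind. Of the 29, 16 were exactly 201 bp wide (55.2%), as were 46.2% of the whole list, and the median was 201 bp against 203 bp. Without them 13 intervals were left, and Apoa1 and Apoe no longer had one at a gene end. Only 4 exceeded 250 bp (13.8%, against 9.1% of the list). These were the intervals of 302 bp over the Zpr1 start, 290 bp inside Apob, 276 bp before Apoa4 and 263 bp over the Apoc4 start. All 4 were thus within 1 kb of a start site. At Apoa2, 3 of 4 intervals were wider than 201 bp, at Mttp 3 of 6, at the Apoe cluster 3 of 7, at the Apoa1 cluster 3 of 9 and at Apob 1 of 3.

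Short letters of transcription factor sites were searched on both strands of the promoter windows. The 8 members had 12 windows of 300 bases, and a match is a description of letters, not of binding. TATAAA, the core of the TATA box, stood in 5 of these 12 windows, at Apoa2, Apoa5, Apob and Apoe, and in 13.6% of all 32851 windows. Both windows of Apoa5 overlap and hold the same copy, so 1 site counts as 2 of the 5. TATAAA began 31 bases before the first start site at Apoa5 and 60 bases before that of Apob. At Apoe it began 96 and, on the opposite strand, 100 bases before a start site, and at Apoa2 212 bases before the second start site. TTGCNNAA, letters of C/EBP type, stood in Apoa2 and Apob (10.8% of all windows), and in Apob it is the capital stretch nearer to the 5′ end of the sequence shown above. AGGTCA, the hexamer of nuclear receptors, stood in Apoa2 and Apoc2 (16.3%). TGTTTAC, of FOXA type, stood in Apoa2 and Apoe (3.65%).

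No member's window held CAAAGTCCA, of HNF4 type, or TCAAGGTCA, of the type of the estrogen-related receptors, which stood in 0.475% and 0.423% of all windows. The latter contains AGGTCA. None of the letters searched stood in the windows of Apoa1, Apoa4 or Mttp, which says only that these exact letters were not there. Of the matches in members none lay in an interval. Only the windows of Apoa4 and Apob held any part of an interval, and Apoa4 had no match, so little overlap was possible. Apoc4 had AGGTCA 25 to 20 bases before its start site, inside its interval and in capitals in the sequence above.

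Around the loci the density of intervals differed further out. Between 10 and 50 kb from the member genes the Apoa1 cluster had 15 more intervals, 7 of them inside Sik3. Apoa2 had 10 more, the Apoe cluster 6, Apob 4 and Mttp 1. The 4 beyond Apob lay between protein-coding genes, as did the interval beyond Mttp.

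Other genes of lipoprotein metabolism were described by role. Of 34 such genes, 27 (79.4%) had an interval at a gene end, against 61.5% of all protein-coding genes, and 21 had more than 3 intervals, against 41.7% of all protein-coding genes. These shares were not matched for span, and the 34 genes spanned from 1.6 kb (Gpihbp1) to 154.1 kb (Lipc). Among protein-coding genes of the span of Apoa1, Apob and Mttp, 32.9%, 71.6% and 73.4% had an interval at an end. Every one of the 34 had at least 1 interval in its window, and the lower quartile of all protein-coding genes was also 1. Of 7 further apolipoprotein genes 5 had an interval at an end. The exceptions were Apod, with 1 interval in its window, and Apom, a carrier of sphingosine phosphate, with 4. Apoh, Apon and Apoc4 each had a start site covered by an interval.

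All 6 genes of assembly and secretion had an interval at an end, against 61.5% of all protein-coding genes, which were not matched for span. Mia2, which helps large cargo leave the endoplasmic reticulum, had 12 intervals and Sar1b, a GTPase of the vesicle coat, had 9. Apobec1, the enzyme that edits Apob mRNA, had 5, and P4hb, the protein partner of the Mttp product, had 1. All 5 with a listed start site had an interval within 1 kb of it, against 61.7% of protein-coding genes with a listed start site. Mttp was 1 of 4 among the 8 members that did. So few genes give a coarse count.

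Among genes that act on particles in plasma, the share at gene ends was near that of all protein-coding genes. Of 9 lipase and remodelling genes 5 had an interval at an end (55.6%, against 61.5%), and Angptl8, Gpihbp1, Lipc and Pltp did not. Lipc, the hepatic lipase gene, nevertheless had 17 intervals, all inside its span of 154.1 kb. Among 10 receptor and uptake genes 9 had an interval at an end, all but Vldlr. Scarb1, the receptor for high density lipoprotein, had 15 and Sort1, a sorting receptor, had 11. Abca1, which loads lipid onto apolipoprotein A-I, had 21, the most of the 34, and Abcg1 had 7. Counts rise with gene length, and Abca1 spans 129.2 kb.

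**Figure D4:**
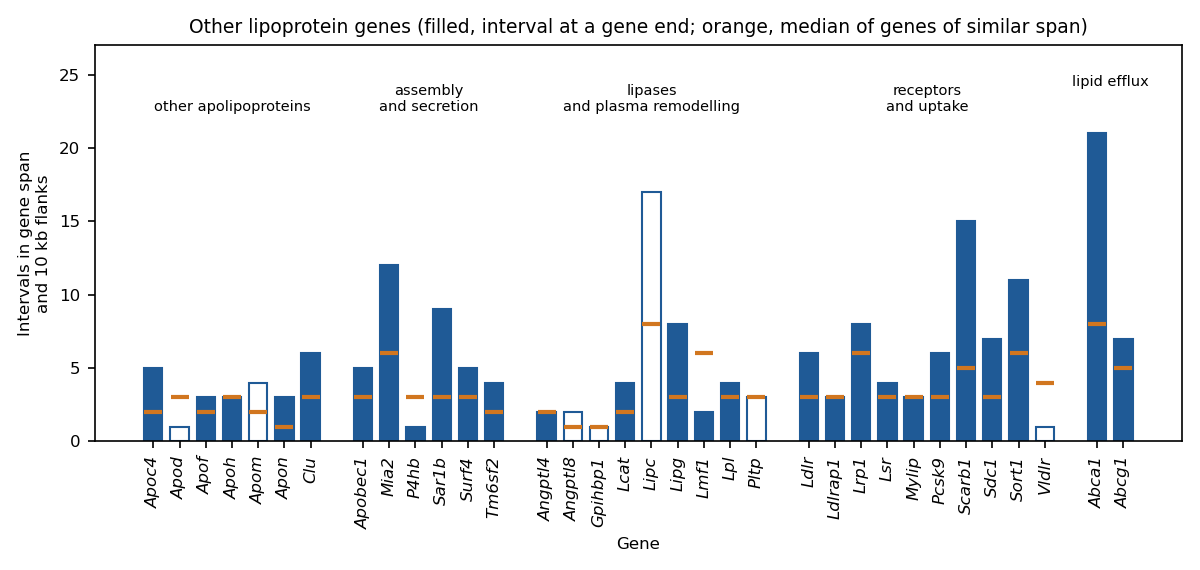
Intervals in the gene span with 10 kb flanks (vertical axis) for 34 other lipoprotein genes, grouped by role. Bars are filled where an interval lies within 1 kb of a gene end, and orange lines are medians of protein-coding genes of similar span. Abca1 with 21 and Lipc with 17 are highest, and Lipc is open.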

How the data were processed

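Libraries were made by ATAC-seq from liver, per the labels' protocols, and an antibody entry naming Esrrg in the labels has no role in that protocol. The submitters' processing notes name fastp, Bowtie2, HOMER and mm10. Not given in the sources used here were tool versions, read-end shifts, duplicate filters, the peak threshold and how libraries were combined. The deposited list held only positions (chromosome, start and end in bp), so an unknown threshold decides which weak sites were listed. A missing interval does not show closed chromatin. Starts were converted to 1-based positions.

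Gene spans and start sites came from RefSeq tables of GRCm38.p6, the mm10 build, for 49943 genes, 21887 of them protein-coding. The start site is the base after the 250 upstream bases of each promoter window. Apoc1 and Apoc3 had no promoter entry. Distances are from a site to the nearest interval edge. Overlaps were counted with numpy 2.4.6 and pandas 2.3.3 and checked on simulated positions. Members and lists were chosen with earlier results of these data known. Some genes and a motif of the lists are not reported here and were left out of the counts by list. Named were all members, genes reaching into a locus, and of the other lipoprotein genes the 5 with the most intervals and the first 5 by name without one at an end. Pltp, Vldlr and further examples were named after their values were seen. Alternatives were flanks of 0, 5 and 50 kb, windows of 500 bp and 5 kb, interval centres, intervals within 500 bp joined, and removal of intervals of exactly 201 bp. Start sites in place of ends, and attribution to the nearest gene, were chosen after seeing the data.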

Additional observations from a re-analysis of the deposited data

How the results depend on the processing

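The total of 29 intervals became 12 with gene spans alone, 65 with flanks of 50 kb and 13 without intervals of exactly 201 bp. It stayed between 21 and 29 with flanks of 5 kb, interval centres, intervals joined, or only intervals nearest to a member's end. Without flanks the Apoa1 cluster kept 1 interval, the Apoe cluster 3, Apoa2 1, Apob 2 and Mttp 5, so the clusters' counts rest on their flanks. Members with an interval at a gene end numbered 7 in the main count and 4 with start sites in place of ends. A window of 500 bp gave 7 (56% of all protein-coding genes), 1 of 5 kb gave 9 (76.8%), and removing intervals of exactly 201 bp left 5 (51.7%), without Apoa1 and Apoe. Members above the median of protein-coding genes numbered 3 without flanks, 8 with flanks of 50 kb and 3 without the intervals of exactly 201 bp, against 5. The medians were 1, 8, 2 and 3 in that order. The share of all protein-coding genes above the median is given only for the main count (41.7%), so the other counts have no background beside them. Of the 34 other lipoprotein genes, 27 had an interval at a gene end in the main count. This became 25 with a window of 500 bp, 31 with a window of 5 kb and 24 without intervals of exactly 201 bp. The median width stayed at 201 bp for intervals centred in gene spans.

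No paired analysis was possible because the list names no library, so leaving out replicates and the strain difference were not run either. Depth is unknown.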
